A study of Mus musculus with 6 samples.

Results

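Polycomb group proteins keep developmental genes silent by modifying histones, and the Asxl proteins belong to an enzyme that acts on one of the same histone marks. The 10 genes described here were Ezh1, Ezh2, Eed, Suz12, Jarid2, Bmi1, Rnf2, Cbx7, Asxl1 and Asxl2. They were chosen by name as subunits of these complexes, out of 36083 genes in the expression table. All 10 were found by symbol, and all 10 reached the mean level of 1 over the 6 libraries that was required for testing.

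RNA-seq was performed on mouse blast crisis chronic myeloid leukaemia (bcCML) cells of 2 groups, with 3 libraries each. Donor KLS cells (c-Kit+, Lin-, Sca-1+, a marrow fraction rich in stem and progenitor cells) came from WT or Sdc1-/- mice on a B6 background. Sdc1 encodes syndecan-1, a heparan sulphate proteoglycan of the cell surface. In both groups the cells carried the retroviral oncogenes BCR-ABL and NUP98-HOXA9, and double-positive cells were transplanted, into NSG mice by the labels and into irradiated CD45.1 mice by the study's general methods for primary transplants. All mice were killed at one time, and Lin- leukaemia cells were sorted from the spleen. A supplementary legend of the study calls the 3 WT libraries technical replicates, and the Sdc1-/- libraries are not described, so every SD and p-value below may measure technical spread only and not the spread between mice.

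PRC2 places the repressive mark H3K27me3. Ezh1 and Ezh2 are its alternative methyltransferases, Eed and Suz12 are core subunits that both forms need, and Jarid2 is an accessory subunit that helps to recruit the complex. PRC1 ubiquitinates histone H2A through a Ring protein (Rnf2 or Ring1) paired with a Pcgf protein such as Bmi1, and in canonical PRC1 a Cbx protein such as Cbx7 reads H3K27me3. Asxl1 and Asxl2 are alternative partners of the deubiquitinase Bap1 in PR-DUB, which removes ubiquitin from H2A. In blood cells Bmi1 and Ezh2 are known for their part in stem cell self-renewal, and ASXL1 and EZH2 are recurrently mutated in human myeloid malignancies.

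Promoter sequences of all 10 genes (300 bases, from 250 before to 50 after the RefSeq start, GRCm38.p6) were found in a table of 32851 promoters, with 2 for Jarid2. The 4 printed here hold either an E2F-type word or an E-box, and belong to a pair of PRC2 genes and to 2 further members whose RNA differed between the groups. Capitals mark words found on either strand. E2F-type words were TTTCGCGC, TTTCCCGC, TTTGGCGC and TTTGCCGC, the E-box was CACGTG and the CCAAT box was CCAAT. The Ezh2 promoter is at chr6:47594981-47595280 (minus strand), Suz12 at chr11:79992856-79993155 (plus strand), Bmi1 at chr2:18676768-18677067 (plus strand) and Asxl2 at chr12:3426607-3426906 (plus strand).
Ezh2: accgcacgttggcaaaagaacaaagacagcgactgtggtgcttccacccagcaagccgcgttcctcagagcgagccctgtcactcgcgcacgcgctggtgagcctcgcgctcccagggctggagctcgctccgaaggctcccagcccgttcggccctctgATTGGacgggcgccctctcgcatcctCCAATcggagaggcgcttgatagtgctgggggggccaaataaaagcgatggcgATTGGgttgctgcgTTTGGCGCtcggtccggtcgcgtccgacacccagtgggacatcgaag
Suz12: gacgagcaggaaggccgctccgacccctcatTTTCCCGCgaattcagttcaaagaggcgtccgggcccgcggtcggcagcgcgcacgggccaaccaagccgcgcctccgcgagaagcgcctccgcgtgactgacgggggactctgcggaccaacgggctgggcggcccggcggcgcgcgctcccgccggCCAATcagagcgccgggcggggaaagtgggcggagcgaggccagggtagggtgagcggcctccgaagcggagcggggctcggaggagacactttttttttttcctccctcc
Bmi1: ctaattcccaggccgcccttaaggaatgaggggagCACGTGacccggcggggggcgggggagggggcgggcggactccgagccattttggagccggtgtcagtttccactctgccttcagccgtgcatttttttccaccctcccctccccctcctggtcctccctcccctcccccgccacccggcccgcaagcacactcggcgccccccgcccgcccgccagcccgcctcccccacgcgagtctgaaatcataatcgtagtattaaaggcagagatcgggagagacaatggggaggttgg
Asxl2: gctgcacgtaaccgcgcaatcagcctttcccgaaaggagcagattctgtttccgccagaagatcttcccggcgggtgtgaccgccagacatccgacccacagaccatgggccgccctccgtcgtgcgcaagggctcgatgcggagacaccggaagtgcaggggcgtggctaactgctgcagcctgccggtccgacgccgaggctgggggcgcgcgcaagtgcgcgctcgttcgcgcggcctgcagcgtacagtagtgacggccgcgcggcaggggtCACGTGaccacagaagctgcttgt

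Among all promoters 2.26% held an E2F-type word, 7.15% the E-box and 37.4% a CCAAT box. The Ezh2 window held TTTGGCGC with its first base at position +4 and CCAAT at 3 positions, and the Suz12 window held TTTCCCGC at -219 and CCAAT at -61. The E-box lay at -215 in Bmi1 and at +27 in Asxl2. CCAAT was also found in the windows of Eed, Jarid2 and Cbx7, and those of Ezh1, Rnf2 and Asxl1 held none of these words. The CpG content, as observed over expected count, was 0.613 to 1.09 over the members, all above the median of 0.384 over all promoters. A match to such a word is a description of the letters and not evidence of binding.

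The libraries of the 2 groups were well separated, with Pearson correlations of log2 values of 0.9929 to 0.9960 within groups and 0.9682 to 0.9716 between them. Levels are given as rescaled TPM (TPM, transcripts in proportion to the library's total, scaled between libraries by the authors), and the sums per library ran from 944973 to 951814 in Sdc1-/- and from 1048875 to 1058263 in WT. Read depth is unknown. The libraries labelled Sdc1-/- held 3.85, 3.81 and 4.12 of Sdc1 RNA itself and the WT libraries 1.75, 1.21 and 1.51, so RNA of the gene was present and higher there. The allele was made by altering the sequence for the signal peptide. The study checked the deletion by PCR on genomic DNA and by immunofluorescence staining for Sdc1 in bcCML cells. RNA from the rest of the gene can still be counted, so this level does not check the labels. Y-linked Eif2s3y and Ddx3y were at most 0.0158 in each WT library and at least 12.1 in each Sdc1-/- library, so the sex of the cells or cell mixture cannot be told apart from the genotype. Xist was not analysed here.

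Marker lists also moved with the groups. By the limma test given below, 29.3% of all genes tested were higher in Sdc1-/- and 31.3% lower, and the counts that follow stand beside these shares. All 11 granulocyte markers were lower in Sdc1-/-, with summed levels of 4706 to 4842 against 13080 to 14020 in WT. All 7 monocyte and macrophage markers tested of 9 were lower as well (sums of 234.3 to 242.8 against 537.3 to 560.5), as were 6 of 8 erythroid markers, the other 2 being higher (5287 to 5690 against 9510 to 10210). Of 17 proliferation markers 13 were higher and 1 lower, with Mki67 at 56.2 ± 1.21 in Sdc1-/- and 19.4 ± 0.632 in WT (mean ± SD, n = 3). Of 8 stem and progenitor markers 5 were higher and 2 lower, Meis1 and Erg being among the higher and Flt3 among the lower. Many lymphocyte and stromal genes were scarce: 6 of 7 T cell, 5 of 6 B cell and 4 of 7 stroma and endothelium markers were below 1 in every library. Of those tested, the T cell gene Lck was higher (mean of 6.89 in WT and 14.1 in Sdc1-/-), and the 1 B cell gene was not called. The stromal gene Col1a2 was higher (18.8 in WT and 23.2 in Sdc1-/-). Pecam1 (15.3 and 12.9) and Pdgfrb (7.31 and 4.18) were lower. The part of these marker lists in the results below was not tested. In bulk RNA, fewer cells of a type and less RNA per cell cannot be told apart.

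Sdc1-/- bcCML cells held more RNA of both PRC2 methyltransferases and of Asxl2, and less of the PRC1 genes Bmi1 and Rnf2 at the authors' scaling. Of the 10 genes 4 were higher (Ezh2, Asxl2, Ezh1 and Jarid2), 2 were lower (Bmi1 and Rnf2) and 4 did not pass the test (Eed, Suz12, Cbx7 and Asxl1), by limma with a Benjamini-Hochberg adjusted p under 0.05 over 12155 genes. These 6 of 10 stood beside 60.7% of all genes tested, of which 29.3% were higher and 31.3% lower, so a call by itself sets no member apart from other genes. The libraries of the groups did not overlap for 8 of the 10 genes, 5 with Sdc1-/- above and 3 with Sdc1-/- below, beside 66.7% of all genes tested. The changes were moderate. The median absolute log2 fold change was 0.15 over the members and 0.23 over all genes tested, and no member reached 2-fold, which 587 genes did.

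**Figure D1:**
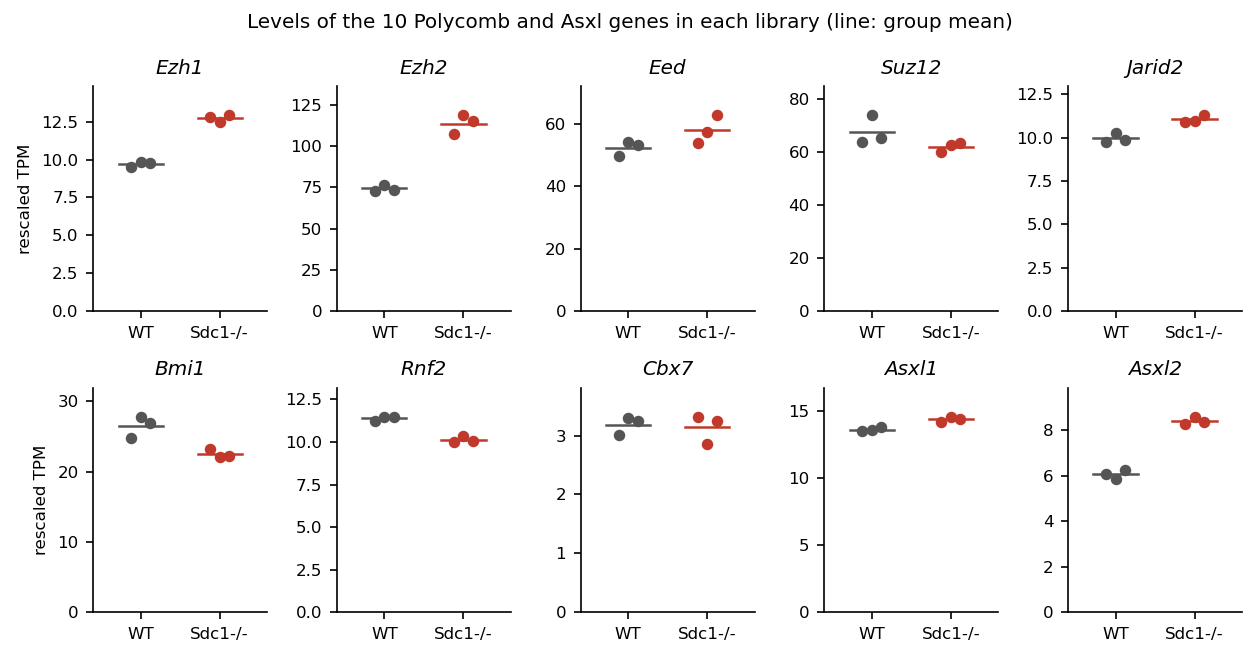
Level of each of the 10 genes in every library, in rescaled TPM on axes from 0, with 3 WT libraries (grey) and 3 Sdc1-/- libraries (red) and a line at each group mean. The groups stand apart for all genes but Eed and Cbx7, and Ezh2 has the widest gap, from 74.4 to 113.7.

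Ezh2, the methyltransferase of dividing cells, was the most abundant member in both groups and had the largest fold change. It was 73.0, 76.7 and 73.6 in WT and 107, 119 and 115 in Sdc1-/-. Every Sdc1-/- library was above every WT library. The means were 74.4 ± 1.98 and 113.7 ± 5.97 (SD, n = 3), a ratio of 1.53 and a log2 fold change of 0.60 ± 0.045 (SE; limma adjusted p = 4.12e-05). Its absolute fold change was larger than that of 85.1% of the genes tested. Under all 15 alternative settings Ezh2 was called higher, with log2 fold changes of 0.57 to 0.75. Beside it 13 of the 17 proliferation markers rose and 1 fell, against 29.3% higher and 31.3% lower over all genes tested. The median log2 fold change was 0.22 over the list. The largest changes of the list, Mki67 (1.49) and Top2a (0.91), were above that of Ezh2 on this scale. The next, Mcm3 (0.51), was below it.

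Ezh1, the paralog used more in resting cells, was 9.50, 9.84 and 9.80 in WT and 12.8, 12.5 and 12.9 in Sdc1-/-. The groups were again apart, at 9.71 ± 0.185 and 12.7 ± 0.241, a ratio of 1.31 and a log2 fold change of 0.36 ± 0.040 (limma adjusted p = 2.76e-04). Ezh1 was also called higher in all 15 alternatives, with log2 fold changes of 0.31 to 0.49. Thus both methyltransferase genes were higher, and Ezh1 did not fall where Ezh2 rose. As a part of the Ezh1 and Ezh2 sum within each library, a quantity that does not depend on how libraries were scaled, Ezh1 was 11.5% ± 0.191 in WT and 10.1% ± 0.585 in Sdc1-/-. All 3 Sdc1-/- libraries were below all 3 WT libraries (difference of -1.46 percentage points, 2-sided exact permutation p = 0.1, the smallest that 3 against 3 can give). The sign of this small difference turned when the share was taken over summed log2 values (0.162 points).

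The 2 core subunits that both forms of PRC2 need did not pass the test. Eed, which binds H3K27me3 and stimulates the enzyme, was 49.6, 54.2 and 53.1 in WT and 53.9, 57.4 and 62.7 in Sdc1-/-. Its groups overlapped (log2 fold change of 0.15 ± 0.062, 95% interval -0.0015 to 0.29, limma adjusted p = 0.0795). Eed passed the test in 5 of the 15 alternatives, each time as higher, among them equal library sums (0.29, adjusted p = 0.0065) and the fit without Sdc1-/- replicate 1 (0.20, adjusted p = 0.0293). Suz12, the scaffold of the complex, was 63.7, 73.7 and 65.0 in WT and 59.9, 62.5 and 63.3 in Sdc1-/-. All its Sdc1-/- libraries were just below the WT libraries (log2 fold change of -0.12 ± 0.059, 95% interval -0.26 to 0.019, limma adjusted p = 0.118), and the value became 0.027 when every library was set to the same sum.

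Ezh2 was above Suz12 within each of the 6 libraries, by a wider gap in Sdc1-/-. In WT the order of levels was Ezh2, Suz12, Eed, Bmi1, Asxl1, Rnf2, Jarid2, Ezh1, Asxl2 and Cbx7. Across libraries the ranges of Ezh2 and Suz12 overlapped there, and so did those of Jarid2 and Ezh1. In Sdc1-/- Ezh2 (113.7) was apart from Suz12 (61.9 ± 1.77), whereas Suz12 and Eed (58.0 ± 4.45) overlapped. Ezh1 moved from the place below Jarid2 to the place above it, and Rnf2 fell from above both to below both. The lowest of the 10 genes was Cbx7, at 3.16 over the 6 libraries. That level was above 72.2% of all 36083 genes in the table, of which 11369 were 0 in every library.

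Jarid2 was 9.76, 10.3 and 9.87 in WT and 10.9, 11.0 and 11.3 in Sdc1-/-. The groups did not overlap, but the gap was small, with a ratio of 1.11 and a log2 fold change of 0.14 ± 0.042 (limma adjusted p = 0.0264). This call was lost in 6 of the 15 alternatives. It was lost without WT replicate 1 (0.12, adjusted p = 0.0779), WT replicate 3 (0.13, adjusted p = 0.0769), Sdc1-/- replicate 2 (0.14, adjusted p = 0.0664) or Sdc1-/- replicate 3 (0.12, adjusted p = 0.0807), after quantile normalization (0.11, adjusted p = 0.0661), and after the dependence on transcript length and GC content was removed (0.049, adjusted p = 0.289).

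Of 10 other PRC2 genes 9 were tested. Of these 4 were higher, 1 was lower and 4 did not pass the test, beside 29.3% higher and 31.3% lower over all genes tested. The median log2 fold change of the list was 0.055, against -0.0097 over all genes tested. The higher genes were Epop (0.60), Mtf2 (0.51), Phf1 (0.44) and Aebp2 (0.28), all accessory subunits. Epop came to 0.26 (adjusted p = 0.0126) with the length and GC trend removed, below Mtf2 (0.49) and Phf1 (0.36) in the same fit. Mtf2, which binds unmethylated CpG-rich DNA, rose from 24.1 ± 2.19 to 34.6 ± 0.870. Rbbp7, a histone-binding subunit shared with other chromatin complexes, fell from 310.2 ± 12.4 to 258.4 ± 6.33 (log2 fold change of -0.26, limma adjusted p = 9.14e-04). Accessory subunits include Phf1, Mtf2, Phf19 and Epop of PRC2.1 and Jarid2 and Aebp2 of PRC2.2, which are alternative forms. Jarid2 and Aebp2 together made up 50.8% ± 1.28 of the sum of these 6 genes in WT and 47.5% ± 0.388 in Sdc1-/-, with all Sdc1-/- libraries below (exact permutation p = 0.1, the smallest possible), a difference of -3.27 points that was -1.65 over summed log2(value + 1). Mtf2 went from 34.2% ± 2.18 to 38.5% ± 0.591 of that sum, and Phf19 from 8.93% ± 1.05 to 6.05% ± 1.56. Lcor and Lcorl, also listed as PRC2 genes and not called, were not part of that sum.

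**Figure D2:**
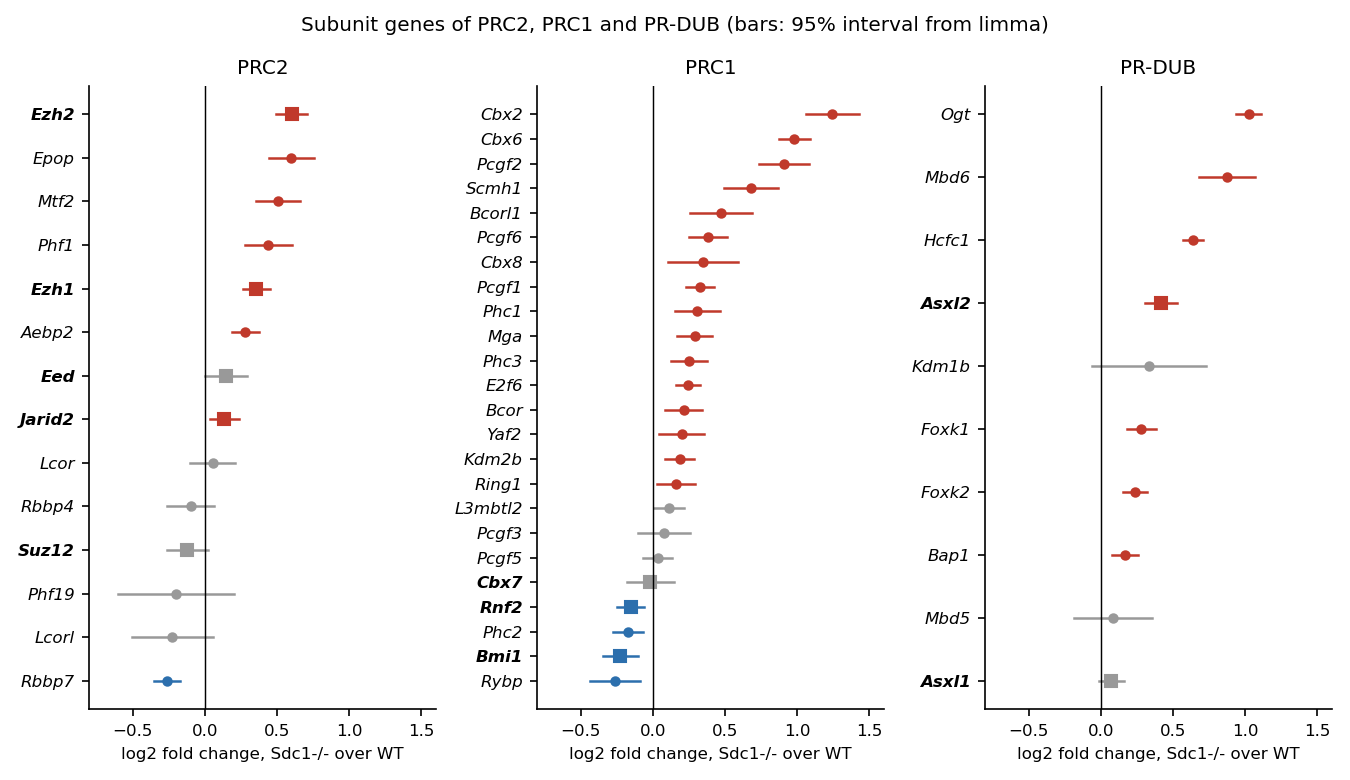
Log2 fold change of every tested subunit gene of PRC2, PRC1 and PR-DUB on the log2(value + 1) scale, Sdc1-/- over WT, with 95% intervals from limma; squares and bold names are the 10 genes, red marks genes called higher, blue lower and grey not called. Bmi1 and Rnf2 stand at the lower end of PRC1, where 16 other subunit genes were called higher and 2 lower. Over all genes tested 29.3% were called higher and 31.3% lower.

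Bmi1, a Pcgf protein of canonical PRC1 and a repressor of the Ink4a/Arf locus, was 24.7, 27.8 and 26.9 in WT and 23.2, 22.0 and 22.2 in Sdc1-/-. All Sdc1-/- libraries were below all WT libraries, at 26.5 ± 1.57 and 22.5 ± 0.627. The ratio was 0.849 and the log2 fold change -0.23 ± 0.051 (limma adjusted p = 0.00717). Bmi1 was called lower in 14 of the 15 alternatives and not when each library was set to the same sum (-0.083, adjusted p = 0.207). Of the 31-base words of its transcripts 28.2% also occur in other genes, chiefly in the pseudogene Gm5946, whose own level was at most 0.0689 in any library.

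Rnf2, the main catalytic Ring protein of PRC1, was 11.2, 11.5 and 11.5 in WT and 10.01, 10.4 and 10.1 in Sdc1-/-. The groups did not overlap, and the log2 fold change was -0.15 ± 0.040 (limma adjusted p = 0.0130). It passed the test in 13 of the 15 alternatives, and missed it with equal library sums (-0.017, adjusted p = 0.728) and with the length and GC trend removed (-0.13, adjusted p = 0.0575). An exon of Rnf2 overlaps one of Trmt1l on the opposite strand, and Trmt1l was at most 7.83 in WT and at least 13.8 in Sdc1-/-; whether reads were counted by strand is not given in the sources used here.

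Cbx7 was 3.01, 3.29 and 3.25 in WT and 3.32, 2.85 and 3.25 in Sdc1-/-. The libraries were interleaved, and the log2 fold change of -0.016 ± 0.070 had a 95% interval of -0.18 to 0.15 (limma adjusted p = 0.857), which leaves room for changes of either sign. Its sign turned in 4 of 14 alternatives, and it was called in none of them. Exons of Cbx7 and Apobec3 overlap on opposite strands, and Apobec3 was far more abundant, at 151 to 169 over the 6 libraries.

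The other PRC1 genes went mostly the other way from Bmi1 and Rnf2. Of 23 listed 21 were tested, and 16 were higher, 2 lower (Rybp and Phc2) and 3 not called, with a median log2 fold change of 0.25. Over all genes tested 29.3% were higher. With equal sums 18 of the list were higher and 0 lower, and with quantile normalization 15 and 2. With the length and GC trend removed 13 were higher and 2 lower. Pcgf2, the closest paralog of Bmi1, rose from 1.94 ± 0.0834 to 4.51 ± 0.383 (log2 fold change of 0.91, limma adjusted p = 5.47e-05). Pcgf6 (0.38) and Pcgf1 (0.33), which belong to variant PRC1 without a Cbx protein, were higher too, while Pcgf3 (0.077) and Pcgf5 (0.034) did not pass the test. Among Cbx genes, Cbx2 rose from 0.683 ± 0.0132 to 2.99 ± 0.289 (1.24) and Cbx6 from 7.63 ± 0.0512 to 16.1 ± 0.645 (0.98). Ring1, the paralog of Rnf2, was higher by a small margin (0.16, adjusted p = 0.0422) and lost its call in 8 alternatives, 5 of them without a single library (each but Sdc1-/- replicate 2, adjusted p from 0.0572 to 0.116).

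Within the Pcgf and Ring families Bmi1 and Rnf2 took a smaller part in Sdc1-/- than in WT. Bmi1 was 35.1% ± 0.823 of the summed level of the 6 Pcgf genes in WT and 27.2% ± 0.523 in Sdc1-/-, a difference of -7.86 percentage points. Pcgf2 went from 2.57% to 5.45% of that sum, Pcgf1 from 18.2% to 21.1% and Pcgf6 from 16.8% to 20.4%. Rnf2 was 46.7% ± 1.35 of the Rnf2 and Ring1 sum in WT and 40.9% ± 1.86 in Sdc1-/- (-5.77 points). In both families all Sdc1-/- libraries were below all WT libraries, and each exact permutation p was 0.1, the smallest that the design allows. Leaving out each library in turn moved the Bmi1 difference between -8.33 and -7.60 points and that of Rnf2 between -6.84 and -5.02. Taken over summed log2(value + 1), the differences were smaller, at -2.62 points for Bmi1 and -2.10 for Rnf2.

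**Figure D3:**
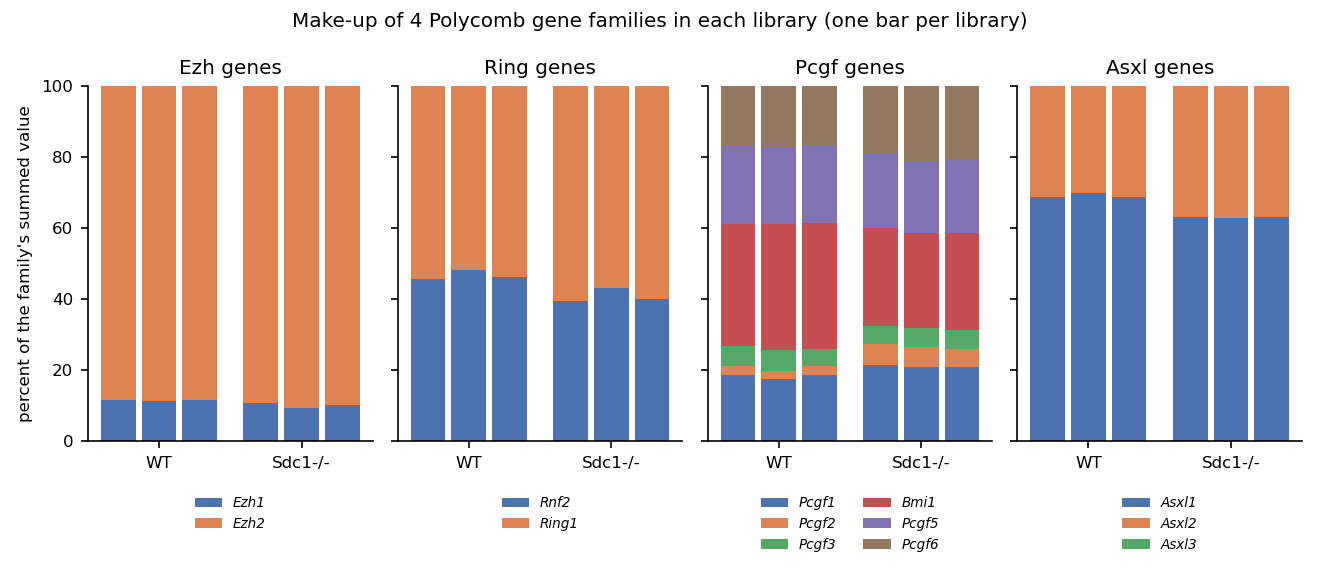
Make-up of 4 gene families in each library, with one bar per library and each colour the percent that one gene takes of the family's summed rescaled TPM. In every Sdc1-/- library the parts of Rnf2, Bmi1 and Asxl1 are smaller than in every WT library, with the widest difference for Bmi1 (35.1% to 27.2%).

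Asxl2 was called higher and Asxl1 was not called, although its libraries also stood above WT. Asxl2 was 6.09, 5.85 and 6.27 in WT and 8.29, 8.60 and 8.38 in Sdc1-/-. The groups were far apart for their spread, at 6.07 ± 0.209 and 8.42 ± 0.157, a ratio of 1.39 and a log2 fold change of 0.42 ± 0.047 (limma adjusted p = 2.81e-04). Asxl2 was called higher in all 15 alternatives, with log2 fold changes of 0.26 to 0.55, the lowest with the length and GC trend removed. Its transcript, of 11934 bases, is the longest among the members. Asxl1 was 13.5, 13.5 and 13.8 in WT and 14.2, 14.5 and 14.4 in Sdc1-/-. All 3 Sdc1-/- libraries were above WT, yet the log2 fold change of 0.074 ± 0.037 did not pass the test (95% interval -0.013 to 0.16, limma adjusted p = 0.12). Asxl1 was called higher with equal library sums (0.21, adjusted p = 0.00198), and its sign turned with the length and GC trend removed (-0.046).

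Asxl1 stayed the more abundant of the Asxl genes, but its part of the summed Asxl level was 69.1% ± 0.579 in WT and 63.0% ± 0.158 in Sdc1-/-. All Sdc1-/- libraries were below all WT libraries, and the difference of -6.11 points (exact permutation p = 0.1, the smallest possible) lay between -6.31 and -5.78 with any one library left out. Over summed log2(value + 1) it was -2.90 points. Asxl3 was at most 0.0203 in any library.

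Asxl2 lies on the same chromosome as the targeted gene, at chr12:3426857-3506852 (GRCm38, plus strand), with Sdc1 5.26 Mb away at chr12:8771323-8793715. Of the 20 tested genes between them 5 were higher and 6 lower, which is 55% called, beside 57% of the 430 tested genes of chromosome 12. The other members lie elsewhere: Ezh2 at chr6:47530139-47595341, Ezh1 at chr11:101191115-101226463, Suz12 on the same chromosome 11 at 79993106 to 80034123, Bmi1 at chr2:18677018-18686629, Asxl1 at chr2:153345829-153404007, and the rest on chromosomes 1 (Rnf2), 7 (Eed), 13 (Jarid2) and 15 (Cbx7).

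Most other PR-DUB genes that were tested rose. Of 9 listed 8 were tested, 6 were higher, none was lower and 2 did not pass the test, with a median log2 fold change of 0.31. Over all genes tested 29.3% were higher and 31.3% lower, with a median of -0.0097. Bap1, the catalytic subunit, rose from 28.4 ± 0.872 to 32.1 ± 0.697, a log2 fold change of 0.17 (limma adjusted p = 0.00652). Ogt, the transferase of O-GlcNAc to nuclear proteins and a PR-DUB partner, went from 16.7 ± 0.463 to 35.0 ± 0.622 (1.03, adjusted p = 2.36e-06), the largest change of the list. Mbd6 (0.87) and Hcfc1 (0.64) followed. The list also gave 6 higher and none lower under equal sums, under quantile normalization and with the length and GC trend removed.

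Genes with the opposite biochemical roles were read in the same fit. Kdm6a (UTX), an X-linked H3K27 demethylase, was 21.5, 21.2 and 20.3 in WT and 11.4, 12.4 and 13.2 in Sdc1-/- (log2 fold change of -0.72, limma adjusted p = 6.02e-05). Its Y-linked homolog Uty was at most 0.0546 in WT and 6.26, 6.97 and 7.98 in Sdc1-/-. The sum of both, a quantity chosen after the values were seen, was 21.04 ± 0.629 in WT and 19.4 ± 1.79 in Sdc1-/-, and its libraries overlapped (exact permutation p = 0.2). Kdm6b, the third gene of the family, was called higher (0.19, adjusted p = 0.0327), with the call lost in 7 alternatives, 5 of them without a single library (each but Sdc1-/- replicate 2, adjusted p from 0.0504 to 0.0983), and the sign turned (-0.023) once the length and GC trend was removed.

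Of 12 Trithorax and COMPASS genes, which encode histone methyltransferases and their partner subunits and are known for opposing Polycomb silencing, 11 were higher, none was lower and 1 (Wdr5, chosen for mention after its values were seen) was not called, with a median log2 fold change of 0.48. Over all genes tested 29.3% were higher and 31.3% lower. Kmt2d rose from 3.48 ± 0.509 to 12.03 ± 0.614 (1.54), Kmt2b from 6.91 ± 0.690 to 15.7 ± 1.45 (1.08) and Kmt2a from 1.66 ± 0.158 to 4.36 ± 0.138 (1.01). These transcripts are long, with a median of 7478 bases against 2790 over all genes, and long transcripts were higher in Sdc1-/- more often: 38.9% of genes with transcripts of at least 4317 bases were called higher and 15.5% of those up to 1612 bases. With that trend and the one for GC content removed, 11 of 12 were called higher, with a median of 0.39, and Kmt2d, Kmt2b and Kmt2a stood at 1.19, 0.84 and 0.76. The median of the 10 Polycomb and Asxl genes was 0.11 before that removal and 0.0017 after it.

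Among 41 classical Polycomb targets (the Hox genes and the Ink4 genes), 19 were below 1 in every library and 21 were tested. Of these 15 were higher, 3 lower and 3 not called, with a median log2 fold change of 0.59. Over all genes tested 29.3% were higher and 31.3% lower, with a median of -0.0097. Cdkn2a encodes p16Ink4a and p19Arf and is the best known target of Bmi1. Its level was 47.5 ± 1.31 in WT and 29.7 ± 1.42 in Sdc1-/- (-0.66, limma adjusted p = 2.41e-05). Its neighbour Cdkn2b, encoding p15Ink4b, was 10.6, 10.9 and 10.2 in WT and 2.27, 2.64 and 2.89 in Sdc1-/- (-1.69, adjusted p = 4.37e-06). Hoxb6 rose from 5.997 ± 0.532 to 16.1 ± 0.365 (1.30) and Hoxa5 from 3.22 ± 0.202 to 8.62 ± 0.460 (1.19). Not all Hox genes rose: Hoxb7 was the other lower gene, at 8.35 ± 0.705 in WT and 6.73 ± 0.51 in Sdc1-/- (-0.27, limma adjusted p = 0.0171). No histone mark was measured in this series, and a part of Bmi1 or Ezh2 in these changes was not tested.

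**Figure D4:**
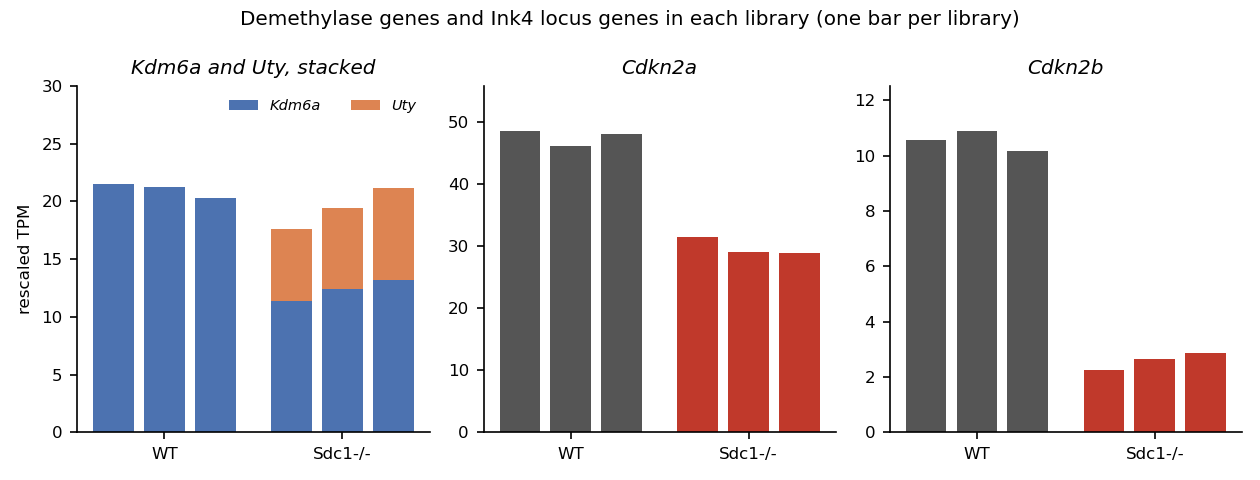
Rescaled TPM of Kdm6a with Uty stacked on it, and of Cdkn2a and Cdkn2b, with one bar per library from 0. Uty is seen only in the Sdc1-/- libraries, where Kdm6a is lower, and both Ink4 genes are lower in every Sdc1-/- library than in every WT library.

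The scale on which libraries were compared changed which of these genes were called. Equal sums or quantile normalization turned the sign only of Suz12 and Cbx7, which were not called with the authors' scaling, equal sums or quantile normalization. Removing the length and GC trend turned the sign only of Asxl1 (-0.046). When every library was set to a sum of 1000000, all genes tested moved from a median of -0.0097 to one of 0.12 (log2), 43.5% of genes were called higher and 19.6% lower, and 6 of the 10 genes were higher and none lower. The 6 were the 4 called before with Eed and Asxl1. Relative to that shift Ezh2 (0.75), Asxl2 (0.55) and Ezh1 (0.49) remained above the median gene, and Bmi1 (-0.083) and Rnf2 (-0.017) below it. Quantile normalization gave 4 higher, with Eed in place of Jarid2, and 2 lower. Removing the length and GC trend also gave 4 higher and 2 lower, with Suz12 in place of Rnf2 among the lower (-0.13, adjusted p = 0.0319) and Eed in place of Jarid2 among the higher. Ezh1, Ezh2 and Asxl2 were thus the members called under every setting tried.

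**Figure D5:**
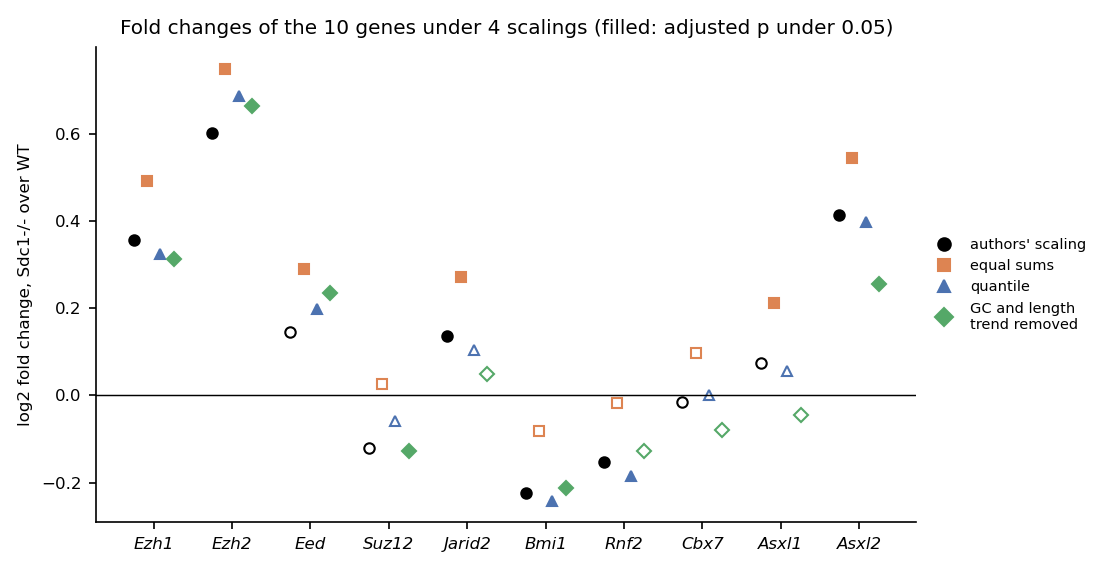
Log2 fold change of the 10 genes, Sdc1-/- over WT, with the authors' scaling (circles), equal library sums (squares), quantile normalization (triangles) and the length and GC trend removed (diamonds), filled where limma's adjusted p was under 0.05. Ezh1, Ezh2 and Asxl2 are filled and above 0 under all 4, while Suz12, Cbx7 and Asxl1 cross 0.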

How the data were processed

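A stranded mRNA kit was used on 150 ng of RNA per sample, with single-end sequencing of 75 bases. The authors deposited, in a table of 1 column per library, a gene-level signal named TPM, made with kallisto (version not given in the sources used here) and sleuth 0.30.0 with build mm10. The library sums differ, so the values had been scaled between libraries and are not plain TPM, and they carry no read counts or depth. The second table deposited by the authors holds sleuth's own comparison (p-values, q-values and effect sizes) and was not used.

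Groups and replicate numbers came from the labels. Values were taken as log2(value + 1), and 12155 genes whose mean reached 1 were fitted by group in limma 3.58.1 (R 4.3.3). eBayes used a trend on the mean, and Benjamini-Hochberg adjusted p-values were read at 0.05. The fold change understates the change of low genes on this scale. Shares of a gene family were computed within each library and compared by a 2-sided exact permutation test. The scripts were tested on simulated data. Python 3.11.15, pandas 2.3.3 and scipy 1.17.1 were used otherwise. Transcript lengths, shared 31-base words and gene positions came from GENCODE M21 and promoters from RefSeq, both on GRCm38 (mm10). Identifiers of 35454 of 36083 genes had a symbol.

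The members and all gene lists were chosen with earlier results of these data known. Named are the members, their paralogs, Sdc1, the demethylases, the Ink4 genes and Bap1, sex-linked genes, and at most 3 called genes per list with the largest change. Aebp2, Rbbp7, Rybp, Phc2 and Hoxb7 complete small counts, and Lcor and Lcorl are named as left out of a share. All of these were named after their values were seen. Alternatives were pseudocounts of 0.1 and 0.5, no minimum and a minimum of 5, equal sums, quantile normalization, no variance trend, a replicate block and leaving out each library. Removal of a spline trend (4 degrees of freedom) on transcript length and GC content was added after seeing the data, and covered 98.6% of the genes tested. The share of Cbx7 within its gene family, which had been planned, is not reported here.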

Additional observations from a re-analysis of the deposited data

How the results depend on the processing

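Over 15 alternatives the calls of Ezh1, Ezh2 and Asxl2 held, Bmi1 lost its call in 1, Rnf2 in 2 and Jarid2 in 6, as given above. The sign turned for Suz12 with equal sums (0.027), for Cbx7 with equal sums (0.097), quantile normalization (0.0011), without WT replicate 2 (0.0026) and without Sdc1-/- replicate 2 (0.035; -0.047 to 0.035 over all libraries left out), and, with the length and GC trend removed, for Asxl1 (-0.046), Pcgf3 (-0.013), Pcgf5 (-0.037) and Kdm6b (-0.023). Taken over summed log2(value + 1), the difference in share was 0.162 points for Ezh1, -2.10 for Rnf2, -2.62 for Bmi1, -2.90 for Asxl1 and -1.65 for Jarid2 with Aebp2; a log scale gives low genes more weight, and only the Ezh1 difference changed sign (exact permutation p = 0.6). Leaving out 1 library gave -1.75 to -1.17 for Ezh1 and -3.66 to -2.53 for Jarid2 with Aebp2.

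Replicate numbers do not pair the samples, since the deviations of same-numbered libraries correlated at 0.151, -0.0083 and 0.019, and not every library correlated best with its own number. With the number as a replicate block, 3653 genes were higher and 3971 lower, against 3564 and 3810 without it, and Eed was added to the members called (0.15, limma adjusted p = 0.029). With equal sums 31% of all calls were lower, against 51.7% at the authors' scaling. Read depth is not known, so no counting error could be given.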
